A study of Mus musculus with 12 samples.

Results

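Noct encodes nocturnin and is 1 of the 53465 genes in a table of RNA-seq read counts from 12 mouse livers. Noct was chosen by its own values, because its read count differed between the ages and among the aged livers, so its levels are given here as a description, with no test. The livers came from C57BL/6N mice with no mutation or treatment in any group. There were 4 livers at each of 3 ages, which the sample titles call young (mice of 3 months), middle (of 12 months, middle-aged here) and old (of 18 months, aged here). Each liver was a separate animal, and the study's methods describe male mice fed without restriction. The protocol in the labels describes livers of young and old mice only. The study describes its own RNA-seq of 4 young and 4 old livers, and names a public atlas as the source of its RNA-seq across the 3 ages. Neither account gives 4 livers at all 3 ages. The preparation of these 12 livers is therefore uncertain. The time of day at which they were taken is not given in the sources used here.

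Nocturnin belongs to the family of exonuclease, endonuclease and phosphatase enzymes that also holds the catalytic deadenylases of the CCR4 type. It was first described as an enzyme that shortens the poly(A) tails of mRNA, and purified nocturnin was later found to remove the 2′-phosphate of NADP(H), which yields NAD(H). Its mRNA is one of the most strongly rhythmic in mouse liver, with a peak around the onset of night, and mice without Noct stay lean on a high-fat diet.

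Noct (ENSMUSG00000023087) lies on the forward strand of chromosome 3, at chr3:51224447-51251644 in GRCm38, and its annotated exons cover 10658 bases. GENCODE M21 lists 4 coding transcripts. Noct-201 has 3 exons and begins at the start of the gene, with its start codon in exon 1. Noct-202 begins at position 51240206, within the first intron of Noct-201, with an exon of 7869 bases. The table holds 1 count per gene, so these transcripts could not be told apart. An unclassified transcript, Gm38357, lies on the same strand in an intron of Noct and shares no exonic base with it. The next gene, Elf2, ends 1075 bases downstream on the other strand and does not overlap Noct.

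The promoter of Noct is shown because the clock is known to drive rhythmic genes through short sequence boxes. The sequence below is the 250 bases before the first base of the gene, at chr3:51224197-51224446 on the forward strand, from RefSeq on GRCm38.p6, and the capitals mark the letters CCAAT and CANNTG (N is any base) on either strand.
Noct promoter: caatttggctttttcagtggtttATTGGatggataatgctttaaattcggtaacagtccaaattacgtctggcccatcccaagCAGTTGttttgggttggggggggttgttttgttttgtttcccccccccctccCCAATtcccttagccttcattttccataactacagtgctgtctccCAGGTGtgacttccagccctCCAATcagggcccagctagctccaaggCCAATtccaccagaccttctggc
CCAAT occurred 4 times in this window, and 33.8% of 32851 promoter windows held it at least once. The general E-box CANNTG occurred 2 times, at 167 and 70 bases before the start, and 66.2% of windows held it at least once. The canonical E-box CACGTG, held by 6.02% of windows, was not among these letters. The cAMP response element TGACGTCA (1.55% of windows), the D-box TTATGTAA (0.819%) and the nuclear receptor element AGGTCA (14% of windows) were not either.

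The question put to these data was how the Noct transcript differed between ages and from liver to liver. Counts were divided by the size factor of each library (median of ratios), which gives normalised read counts. In the 4 young livers Noct stood at 82.8, 125, 101 and 122 normalised counts in replicates 1 to 4. The middle-aged livers held 755, 602, 801 and 776. In the aged livers the values were 1221 and 1519 in replicates 1 and 2, but 305 and 217 in replicates 3 and 4. The young livers were the lowest of all, and no young value reached that of any older liver. The aged livers fell into 2 pairs, with all 4 middle-aged livers between them.

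**Figure D1:**
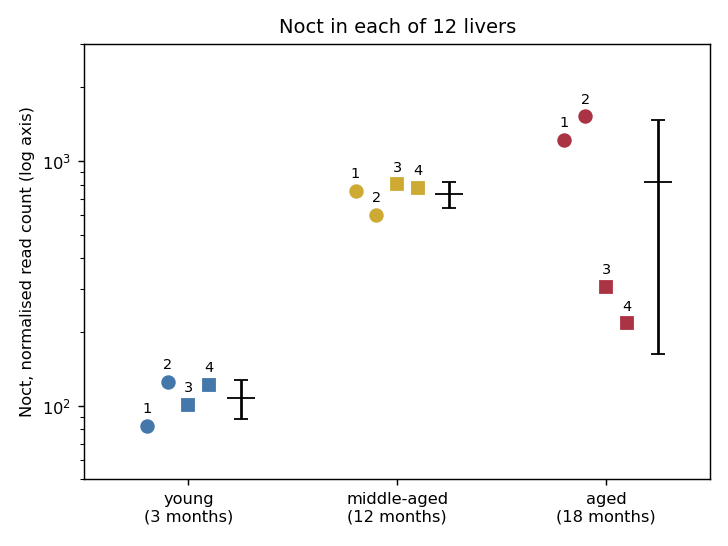
Noct in each liver, as normalised read count on a log axis, by age. Numbers are replicate numbers, circles are replicates 1 and 2, squares are replicates 3 and 4, and the black marks give the mean and SD of 4 livers; the aged livers lie above (1221 and 1519) and below (305 and 217) the middle-aged ones.

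Over 4 livers each, the mean ± SD of Noct came to 107.6 ± 19.7 at the young, 733 ± 89.3 at the middle and 816 ± 653 at the oldest age. Relative to the young mean, the middle-aged mean was 6.82-fold and the aged mean 7.58-fold as high. Single aged livers ran from 2.02-fold to 14.1-fold of that mean. The fitted log2 fold changes of Noct were 2.92 (SE 0.55) for aged against young, 2.77 (SE 0.55) for middle-aged against young and 0.15 (SE 0.55) for aged against middle-aged. These comparisons share livers. Raw counts of Noct ran from 78 to 1577 per library, so counting error is small beside these differences. When livers were ordered by level, the widest step was 1.97-fold, between the lowest middle-aged and the higher of the low aged livers. The step from the lower of these to the highest young liver was 1.74-fold, and the step from the highest middle-aged liver to aged replicate 1 was 1.52-fold. Neighbours within the young and within the middle-aged livers differed by at most 1.25-fold.

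The spread among livers of one age was ordinary in young and middle-aged mice and very wide in aged mice. On the log2 scale the SD of Noct was 0.27 in young livers, 0.19 in middle-aged and 1.41 in aged ones. The median gene had 0.18, 0.14 and 0.20 among the 8888 genes whose mean count reached 50. Of these genes, 2074 had a larger SD than Noct in young and 2673 in middle-aged livers, but only 45 in aged livers. Age means held 74.7% of the squared deviation of Noct over the 12 livers, and of what was left, 94.7% lay among the 4 aged livers.

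Replicate numbers carried a technical difference. The composition of 31 synthetic spike-in RNAs split replicates 1 and 2 of every age from replicates 3 and 4 (correlation of at least 0.997 within and at most 0.925 between these sets). In the aged livers the Noct gap followed this line, with replicates 1 and 2 higher by 2.40 on the log2 scale. In the young and middle-aged livers the same difference was −0.12 and −0.23. Whether the set of a library had a part in the split of the aged livers was not tested. Within replicates 1 and 2, the log2 fold change was 3.74 for aged against young, 2.72 for middle-aged against young and 1.02 for aged against middle-aged. Within replicates 3 and 4 it was 1.22, 2.81 and −1.59. Young livers were thus below both older ages in either set, whereas the order of middle-aged and aged livers turned.

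Few genes behaved like Noct in the aged livers. In 40 of the 8888 genes (0.450%), Noct among them, both of aged replicates 1 and 2 were at least 2-fold above both of replicates 3 and 4. The opposite held for 34 genes (0.383%). In young livers these counts were 18 and 11, and in middle-aged livers 5 and 72, without Noct in any of them. The lower of aged replicates 1 and 2 held 4.00-fold the Noct count of the higher of replicates 3 and 4. The other 39 included Babam2, a subunit of deubiquitinase complexes, at 189, 167, 11.4 and 12.5 in aged replicates 1 to 4. They also included Dbp, a transcription factor of the clock output. Junb, a growth-responsive transcription factor, and Pck1, the rate-limiting enzyme of gluconeogenesis, were among them too, both named after their values were seen.

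The paralogues of nocturnin varied far less from liver to liver than Noct. Cnot6 and Cnot6l are catalytic subunits of the CCR4-NOT deadenylase, Pde12 is a mitochondrial phosphodiesterase that removes poly(A) from RNA, and Angel1 and Angel2 are further family members. Per kilobase of exon, the mean level of Noct was 10.1 normalised counts in young livers, 68.8 at middle age and 76.5 in the oldest livers. Cnot6 held 44.5, 46.8 and 47.2 on the same scale, Cnot6l 33.7, 40.9 and 40.4, and Angel2 30.6, 31.8 and 32.9. Angel1 had 10.1, 11.2 and 9.39, and Pde12 had 14.4, 12.9 and 16.4. By this length Noct was at the level of Angel1, the lowest of the family, in young livers, and in the older livers its mean was the highest of the family. If only the 3059 bases of Noct-201 are counted, the mean levels of Noct per kilobase come to 35.2, 240 and 267. With the paralogues kept on all their annotated exons, the young level would then lie above those of all paralogues but Cnot6. These lengths are unlike measures, so the rank of Noct in young livers depends on the length used. The highest liver exceeded the lowest by 18.3-fold for Noct and by 1.37-fold (Angel2) to 2.12-fold (Pde12) for the paralogues.

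**Figure D2:**
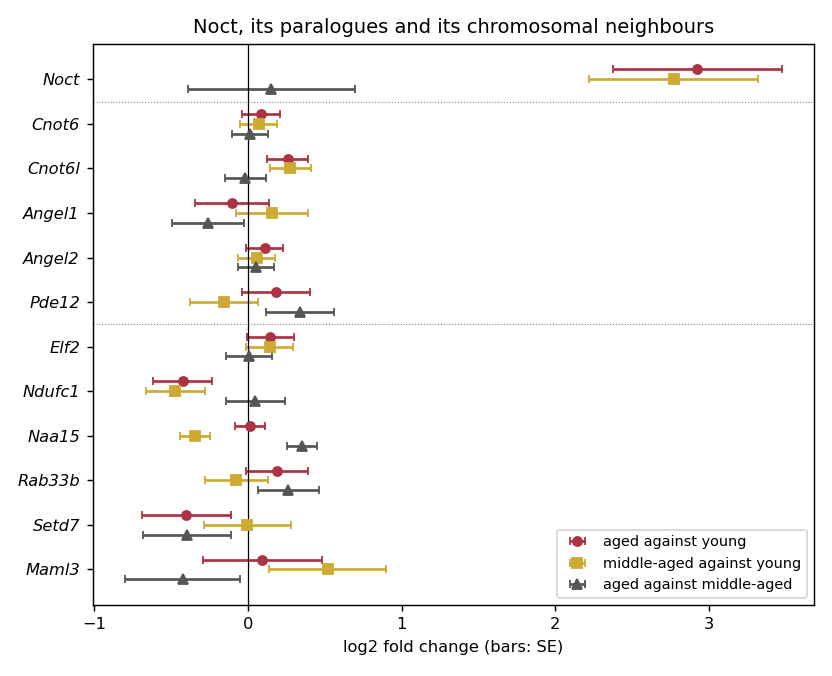
Log2 fold changes (DESeq2, bars give the SE) of Noct, of 5 paralogues and of 6 neighbours on chromosome 3 that were expressed, in 3 comparisons of ages with 4 livers each. The paralogues lie within 0.34 of 0 and the neighbours within 0.52, while Noct lies near 2.9 and 2.8 in the comparisons with young livers.

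To place such changes, all genes were tested with DESeq2 (Wald test, Benjamini-Hochberg adjusted p under 0.05). Aged against young livers gave 484 called genes of 13527 tested (3.58%). Middle-aged against young livers gave 727 of 11333 (6.41%), and aged against middle-aged livers 117 of 10236 (1.14%). The gene lists set beside these shares were chosen with earlier results of these data known. None of the 5 paralogues was called in any comparison by DESeq2 or edgeR, and at an unadjusted p under 0.05 the counts were 0, 1 and 0. Of 18 genes of the machinery that shortens poly(A) tails (CCR4-NOT subunits, Pan2, Pan3, Parn and the Tob and Btg adaptors), 1 was called. Btg2, an adaptor that brings CCR4-NOT to mRNA and is itself an early response gene, fell in middle-aged against young livers (log2 fold change −1.45, DESeq2 adjusted p = 0.0372). Btg2 was widely spread, at 113 to 436 normalised counts in young and 42.2 to 127 in middle-aged livers, so the groups overlapped, and edgeR did not call it.

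The genes around Noct differed between ages by at most 0.52 on the log2 scale. Of 8 protein-coding neighbours downstream on chromosome 3, 6 could be tested, and Mgarp and Mgst2 had at most 5.1 normalised counts in any liver. Elf2, an ETS transcription factor and the nearest, held 146 to 168 normalised counts in young livers, 149 to 199 in middle-aged and 137 to 198 in aged ones. Naa15, a subunit of the main N-terminal acetyltransferase, was the only neighbour called. It fell in middle-aged against young livers (log2 fold change −0.34, DESeq2 adjusted p = 0.0157) and rose in aged against middle-aged livers (0.35, DESeq2 adjusted p = 0.0344). Each time this was 1 of 6 neighbours tested (16.7%, against 6.41% and 1.14% of all genes). Ndufc1, a subunit of respiratory complex I, Rab33b, a small GTPase of the Golgi, Setd7, a lysine methyltransferase, and Maml3, a coactivator of Notch, were not called. By edgeR 0 of 6 neighbours were called in each comparison.

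Since nocturnin acts on NADP(H), enzymes that make or interconvert these cofactors were set beside it. Of 14 such genes tested in aged against young livers, 1 rose and 0 fell (7.14%, against 3.58% of all genes). This was Nnt, the mitochondrial transhydrogenase that makes NADPH, with 688 to 860 normalised counts in young and 920 to 1084 in aged livers (log2 fold change 0.32, DESeq2 adjusted p = 0.0249). Of 13 tested in middle-aged against young livers, 1 rose (7.69%, against 6.41% of all genes), and 6 had an unadjusted p under 0.05. This was Nadk, the cytosolic NAD kinase, which converts NAD to NADP, the opposite direction to nocturnin. Nadk held 1527 to 2021 normalised counts in young and 1865 to 2524 in middle-aged livers (log2 fold change 0.36, DESeq2 adjusted p = 0.0286). None of 12 was called in aged against middle-aged livers by DESeq2, with 1 at an unadjusted p under 0.05. By edgeR none of these genes was called in any comparison.

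Noct is a clock-controlled gene, so the clock was examined next. In the core loop, Arntl (BMAL1) and Clock activate transcription, the Per and Cry proteins repress them, the nuclear receptors Nr1d1 and Nr1d2 repress Arntl, and Dbp, Tef and Hlf carry the rhythm to output genes. Over 28 clock genes, 1 rose and 3 fell in aged against young livers (14.3% of 28, against 3.58% of all genes). In middle-aged against young livers 8 rose and 3 fell (40.7% of 27, against 6.41%). In aged against middle-aged livers 4 rose and 10 fell (53.8% of 26, against 1.14%). These counts were 4, 11 and 14 with DESeq2 and 1, 6 and 8 with edgeR. Without 3 livers that stood apart in RNA composition (young replicates 2 and 3, middle-aged replicate 1) DESeq2 called 2, 3 and 12. In replicates 1 and 2 alone it called 2 of 28, 8 of 28 and 3 of only 9 tested. The number of calls thus depended on the livers used and, in the last fit, on the genes tested.

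Among the activators, Arntl rose in aged against middle-aged livers (log2 fold change 1.56, DESeq2 adjusted p = 0.0117). Arntl stood at 64.8, 58.6, 154 and 136 normalised counts in young livers, at 34.8, 70.9, 88.3 and 44.1 in middle-aged livers and at 106, 121, 249 and 228 in aged livers. The 2 aged livers with little Noct, replicates 3 and 4, had the highest Arntl of all, but young livers had even less Noct with moderate Arntl. No other activator that could be tested was called in any comparison, and edgeR called none. At an unadjusted p under 0.05 there were 3 of 5 in aged against young, 2 of 5 in middle-aged against young and 1 of 4 in aged against middle-aged livers. Npas2, a paralogue of Clock, got no adjusted p in the last comparison because DESeq2 filtered it for its low mean. It held 1.0 to 11.7 normalised counts in middle-aged livers and 19.1, 19.3, 83.0 and 47.4 in aged livers, without overlap.

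Among the repressors, Per3 and Nr1d2 were high in middle-aged livers. Per3 held 16.6 to 43.3 normalised counts in young livers, 56.5 to 111 at middle age and 9.6 to 25.1 in aged livers, so middle-aged livers lay above all others. Its log2 fold change was 1.51 in middle-aged against young (DESeq2 adjusted p = 0.000943) and −2.31 in aged against middle-aged livers (DESeq2 adjusted p = 1.78e-07). Nfil3, which represses the targets of Dbp, went the other way. Nfil3 stood at 217 to 421 in young livers, 105 to 192 in middle-aged and 379 to 522 in aged ones. It fell in middle-aged against young livers (log2 fold change −1.01, DESeq2 adjusted p = 0.000691) and rose in aged against middle-aged livers (1.53, DESeq2 adjusted p = 1.65e-08). Cry1 rose in aged livers against either age, with log2 fold changes of 0.91 and 1.15 (DESeq2 adjusted p = 0.0188 and 0.00261), but was not called by edgeR.

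Among the output genes, Dbp went with Noct in some livers and apart from it in others. Dbp held 188, 220, 173 and 130 normalised counts in young livers and 908, 657, 503 and 687 in middle-aged livers. In aged livers it held 173 and 157 in replicates 1 and 2 and 18.4 and 52.7 in replicates 3 and 4. Within the aged livers Dbp was split as Noct was, higher by 2.36 in replicates 1 and 2 on the log2 scale. Compared with young livers, middle-aged livers thus held more of both Dbp and Noct. Aged replicates 1 and 2, in contrast, had Dbp at the level of young livers and the highest Noct of all 12. Dbp rose in middle-aged against young livers (log2 fold change 1.95, DESeq2 adjusted p = 0.0142) and fell in aged against middle-aged livers (−2.78, DESeq2 adjusted p = 0.000355). Tef, its relative, followed the same order, with 435 to 567 in young livers, 780 to 1156 in middle-aged and 259 to 523 in aged ones. Its log2 fold changes were 0.91 (DESeq2 adjusted p = 0.0018) and −1.27 (DESeq2 adjusted p = 5.77e-06) in these comparisons. Wee1, a cell cycle kinase driven by the clock, rose by 1.72 and fell by 1.72 on the log2 scale. By edgeR, Dbp, Tef, Wee1, Per3 and Nfil3 were called in both of these comparisons. Not all output genes took this course. Of 12 tested by DESeq2, 4 rose and 2 fell (Elovl3 and Insig2) in middle-aged against young livers. In aged against middle-aged livers 6 fell and 1 rose (Insig2).

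**Figure D3:**
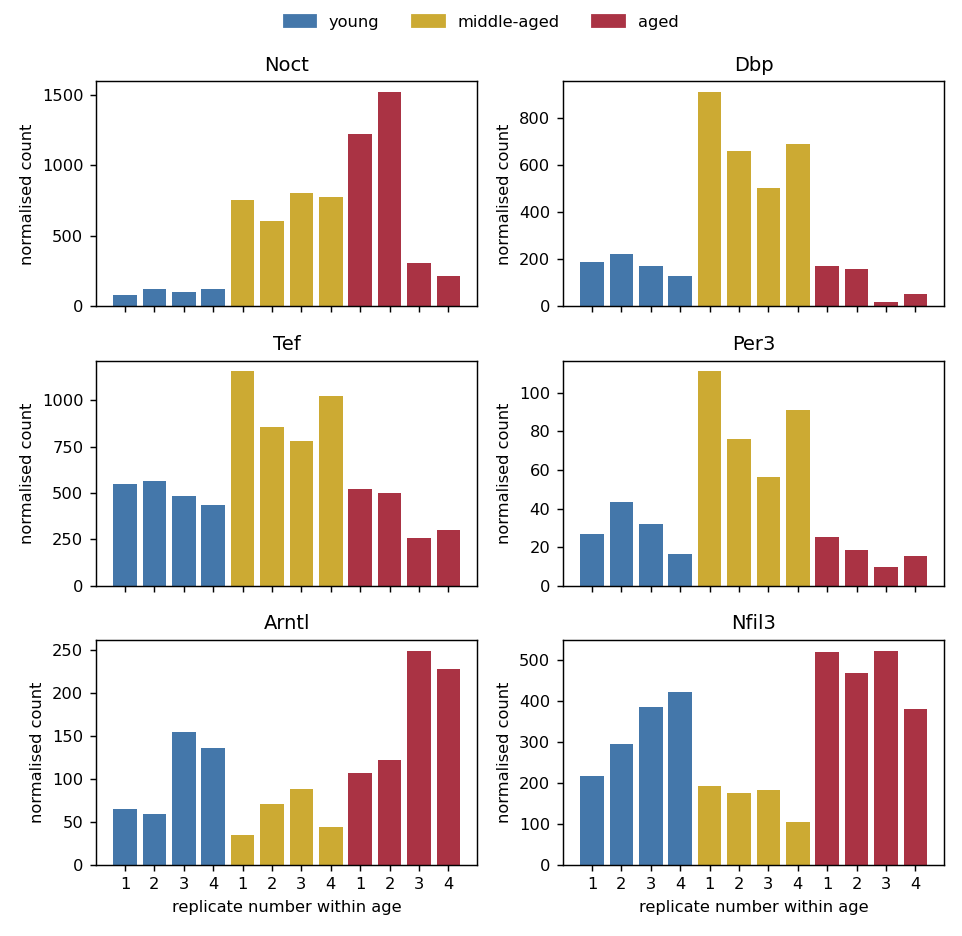
Normalised read counts of Noct and of 5 clock genes in each of 12 livers (bars, axis from 0), ordered by age and replicate number. Dbp, Tef and Per3 are highest in all 4 middle-aged livers, Arntl is highest in aged replicates 3 and 4, and Noct is highest in aged replicates 1 and 2.

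Over 12 livers the Pearson correlation of Noct with Dbp was 0.36, with Tef 0.41, with Cry2 0.62 and with Arntl −0.22, on log2(normalised count + 1). After the mean of each age was taken away, the correlations were 0.77, 0.78, 0.79 and −0.51. Other genes of the same lists ran the other way within ages, among them Hlf (−0.66), Cry1 (−0.76), Insig2 (−0.74) and Nampt (−0.82), named after their values were seen. The median within ages was −0.12 over 10 output genes and 0.38 over 8 repressors. The points share their libraries and size factors, and the second set of values is set largely by the 4 aged livers. Over 8887 genes the middle 90% of correlations lay between −0.60 and 0.63 over 12 livers and between −0.64 and 0.69 within ages.

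Early response genes were examined because Noct is known to be induced by serum and other acute stimuli. None of 16 was called in aged against young or of 11 in aged against middle-aged livers by DESeq2 or edgeR (6 and 3 at an unadjusted p under 0.05), and 3 of 13 fell in middle-aged against young livers (23.1%, against 6.41% of all genes). Egr1 fell by 3.49 on the log2 scale (DESeq2 adjusted p = 0.000281) and Fos fell by 3.07 (DESeq2 adjusted p = 0.0137), and the third was Btg2. Of these edgeR called Egr1. Egr1 ranged from 192 to 728 normalised counts in young and from 26.9 to 57.4 in middle-aged livers, without overlap. Of Fos, young replicate 2 held 84.1 normalised counts and the other young livers 9.6 to 21.3.

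Genes of fasting and glucagon were included since hepatic Noct responds to feeding state. Of 16 tested in aged against young livers, 5 rose and 1 fell (37.5%, against 3.58% of all genes). Cyp4a14 and Cyp4a10, fatty acid hydroxylases induced through PPARα, rose with log2 fold changes of 6.17 and 3.28 (DESeq2 adjusted p = 0.00022 and 0.00155). In replicates 1 and 2 alone neither was called, and of the 6 called fasting genes only Ppp1r3c was. Fgf21, a fasting hormone, was called as well (DESeq2 adjusted p = 0.00213), with 0 to 1.2 normalised counts in young and 9.0 to 33.2 in aged livers, too few in young livers for a fold change. Ppp1r3c, a glycogen-targeting subunit of protein phosphatase, rose by 1.26 (DESeq2 adjusted p = 0.00126). Igfbp1, a binding protein of insulin-like growth factors that insulin represses, fell by 2.14 (DESeq2 adjusted p = 0.0147) in aged and fell by 3.36 (DESeq2 adjusted p = 5.58e-06) in middle-aged against young livers. The Cyp4a genes and Noct were split the opposite way in aged livers. Cyp4a14 stood at 20.1 and 113 in aged replicates 1 and 2 and at 3452 and 1204 in replicates 3 and 4, where Noct was low. The young livers held 1.3 to 33.97, so aged replicate 1 lay within their range. Of 15 tested in middle-aged against young livers, 1 rose and 2 fell (20%, against 6.41% of all genes). In aged against middle-aged livers 2 of 15 rose, Ppp1r3c and Crem (13.3%, against 1.14% of all genes). Of the called fasting genes edgeR called 5 of 6 in the first comparison (not Fgf21), 2 of 3 in the second (Igfbp1 and Crem) and none in the third.

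Of 8 genes of the glucocorticoid response tested in aged against young livers, 2 fell and none rose (25%, against 3.58% of all genes), and 2 of 7 fell in middle-aged against young livers (28.6%, against 6.41%). Zbtb16, a transcription factor induced by glucocorticoids, fell by 1.99 in aged and by 2.13 in middle-aged against young livers on the log2 scale (DESeq2 adjusted p = 1.91e-08 and 7.56e-10). Its normalised counts were 128 to 346 in young livers, 49.4 to 70.0 in middle-aged and 51.6 to 95.4 in aged ones, with no overlap between young and older livers. Errfi1, an inhibitor of the EGF receptor, fell by 1.06 in aged livers, and Tsc22d3 (GILZ) fell by 1.04 in middle-aged livers. All of these were also called by edgeR. None of 7 was called in aged against middle-aged livers by either tool, with 1 at an unadjusted p under 0.05.

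Lipid genes matter for Noct because mice that lack it take up and store less fat. Of 22 genes of lipid uptake, synthesis and storage tested in aged against young livers, 3 rose and 2 fell (22.7%, against 3.58% of all genes). Cd36, a fatty acid transporter, rose by 1.74 (DESeq2 adjusted p = 0.016), but aged replicate 1, at 261 normalised counts, lay within the young range of 213 to 308. The call of Cd36 was lost in replicates 1 and 2 alone. Plin2, a lipid droplet coat protein, rose by 0.55 (DESeq2 adjusted p = 0.0139). Cidea, another droplet protein, was called (DESeq2 adjusted p = 0.00485) through aged replicates 3 and 4, at 284 and 67.9 normalised counts, while the other aged livers held 3.0 and 3.9 and the young livers 0 to 2.1. Lpin1, a phosphatidate phosphatase and coactivator, fell by 1.95 (DESeq2 adjusted p = 3.36e-05) and Lpin2 by 0.63 (DESeq2 adjusted p = 0.0285). Srebf1, the main transcription factor of lipogenesis, rose in middle-aged against young livers (0.81, DESeq2 adjusted p = 0.00382), and Lpin2 fell in aged against middle-aged livers (−0.71, DESeq2 adjusted p = 0.0216). These were 1 of 21 lipid genes each (4.76%, against 6.41% and 1.14% of all genes). Lpin1 was the only lipid gene that edgeR called in these comparisons.

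Within ages, many but not all lipid genes were negatively correlated with Noct. Such correlations are set largely by the 4 aged livers, which held 94.7% of the squared deviation of Noct from its age means. There the Noct gap followed the spike-in sets, and the part of these sets was not tested. Over the 18 lipid genes that reached a mean of 50 normalised counts, the median correlation with Noct was 0.06 over 12 livers and −0.58 once age means were removed, against 0.02 for all 8887 genes in either case. The values within ages ran from −0.88 (Cd36) to 0.68 (Lpin2), and Lpin1 was also positive (0.22). So was Igf1 (0.41), a growth factor that this list also held. Cd36 stood at 261 and 432 normalised counts in aged replicates 1 and 2 and at 1502 and 1132 in replicates 3 and 4 (within-age correlation −0.88). Srebf1 stood at 1682 and 1683 against 2938 and 2991. The lipogenic enzymes Elovl6, at 639 and 960.4 against 2609 and 2453, and Acly, at 2146 and 2499.6 against 6049 and 5924, were named after their values were seen. So was Me1, the malic enzyme that supplies NADPH for lipogenesis, at 658 and 1203 against 3686 and 3932. Pck1 was split as Noct was, at 13403 and 19618 against 5365 and 4249 (within-age correlation 0.87). The opposition of Cd36 and Noct did not extend across ages, since young livers combined little Noct with little Cd36 (213 to 308) and much Pck1 (12672 to 23028).

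**Figure D4:**
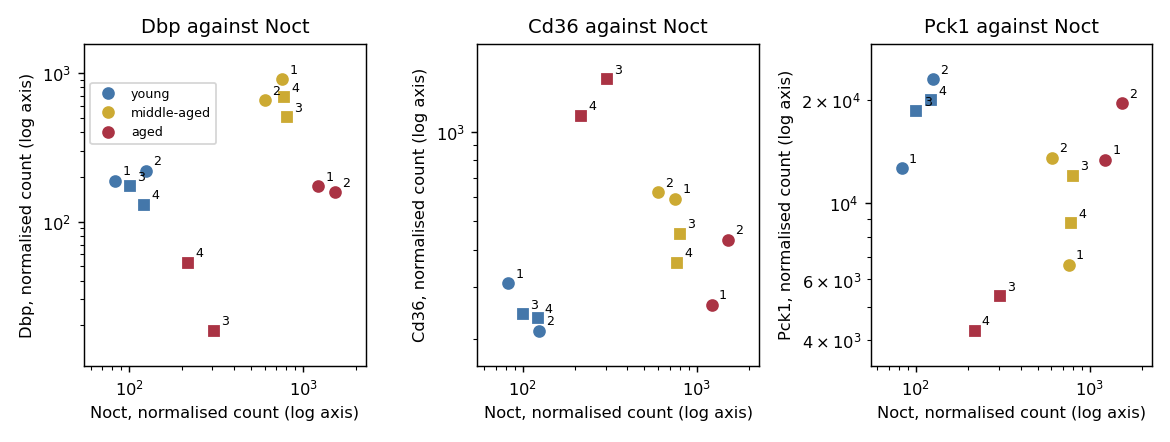
Noct (horizontal, normalised read count, log axis) against Dbp, Cd36 and Pck1 (vertical, normalised read count, log axis) in 12 livers; numbers are replicate numbers, circles replicates 1 and 2, squares replicates 3 and 4. In each panel the young livers lie lowest on the Noct axis. Aged replicates 3 and 4 lie below the middle-aged livers on that axis, and aged replicates 1 and 2 lie above them.

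The genes most like Noct over all 12 livers were then listed by Pearson correlation, among genes that reached a mean count of 50. The 10 highest were Rin3 (0.94), Arhgap17 (0.93), Npr2 (0.91), Pip5k1c (0.91), D17Wsu92e (0.90), Unc13b (0.89), Tmem19 (0.89), Hrg (0.89), Myh14 (0.89) and Ssbp3 (0.88). None of them is a clock gene of the lists used here. Rin3 is an exchange factor for Rab5, Npr2 a natriuretic peptide receptor and Hrg a plasma glycoprotein made by hepatocytes. Rin3 had 180 to 209 normalised counts in young livers, 250.2 to 294 in middle-aged and 216 to 301 in aged ones. Without the 2 livers farthest from the median of Noct (young replicates 1 and 3) these correlations were 0.83 to 0.92. By rank the correlation was lower in most of them, between 0.83 and 0.95 in 9 genes and 0.67 in Unc13b, whose 4 middle-aged livers (162 to 220 normalised counts) all lay above aged replicates 1 and 2 (151 and 156). The highest liver exceeded the lowest by 1.30-fold to 2.10-fold in 9 of these genes and by 4.04-fold in Unc13b, a protein of vesicle priming, against 18.3-fold in Noct.

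The genes most unlike Noct were Tceal8 (−0.94), Mup17 (−0.92), Mup15 (−0.92), Aasdhppt (−0.89) and Timm10 (−0.88). Tceal8, an X-linked gene of the TFIIS-like family, was close to a mirror image. It stood at 126 to 203 normalised counts in young livers and 32.1 to 76.3 in middle-aged livers. In aged livers it held 24.1 and 24.1 in replicates 1 and 2 and 156 and 121 in replicates 3 and 4. Mup17 and Mup15 encode major urinary proteins, which male mice secrete, and their near-identical copies share reads, so the single values are uncertain. Mup17 held 13852 to 45665 in young and at most 4727 in older livers.

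**Figure D5:**
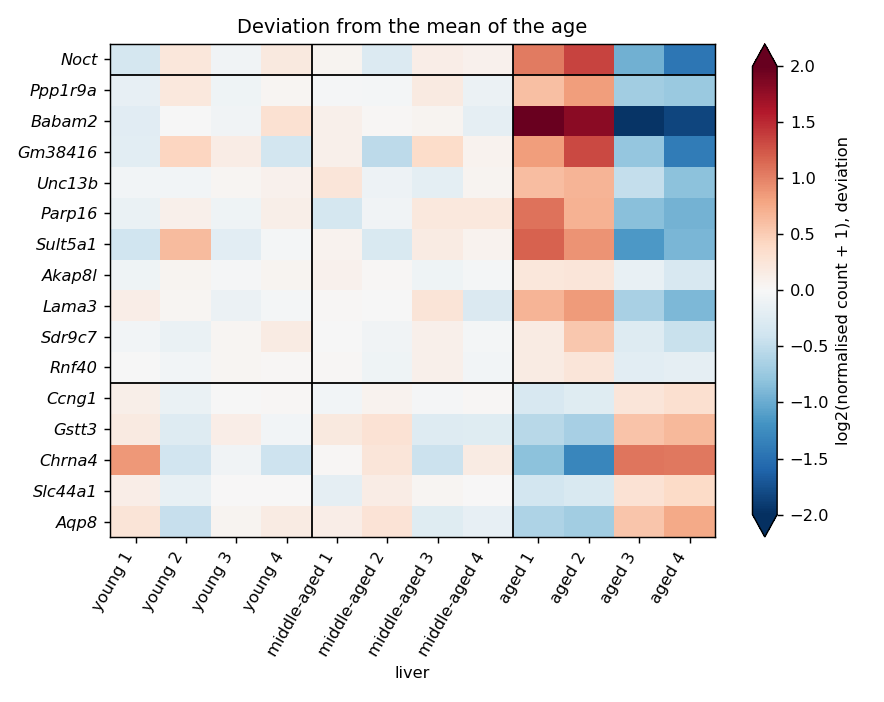
Deviation of log2(normalised count + 1) from the mean of each age, for Noct, the 10 genes most like it and the 5 most unlike it by that measure (colour scale ends at −2 and 2). Colour is concentrated in the 4 aged livers, where replicates 1 and 2 stand against replicates 3 and 4.

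With age means removed, the list changed except for Unc13b (0.95). These values too are set largely by the 4 aged livers. The most alike were Ppp1r9a (0.98), Babam2 (0.96), Gm38416 (0.95), Unc13b, Parp16 (0.94), Sult5a1 (0.94), Akap8l (0.94), Lama3 (0.93), Sdr9c7 (0.92) and Rnf40 (0.91). Parp16, an ADP-ribosyltransferase of the endoplasmic reticulum, stood at 956 and 732 normalised counts in aged replicates 1 and 2 and at 253 and 233 in replicates 3 and 4. Its young livers held 207 to 248 and its middle-aged livers 248 to 367. Unlike Noct, Babam2 was as high in young livers (165 to 238) as in middle-aged livers (145 to 178). The most unlike were Ccng1 (−0.96), Gstt3 (−0.95), Chrna4 (−0.94), Slc44a1 (−0.94) and Aqp8 (−0.93). Aqp8, a water channel of hepatocytes, held 1390 and 1315 in aged replicates 1 and 2 and 3121 and 3605 in replicates 3 and 4. Without aged replicates 2 and 4, the livers farthest out, these correlations were between 0.78 and 0.97 and between −0.95 and −0.88.

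The libraries held 8124312 to 10527159 gene counts, and 3 counts, the limit set by a count of 0, come to 0.28 to 0.37 CPM (counts per 1e6 gene counts). In bulk tissue, fewer cells of a type and less RNA per cell cannot be told apart. Hepatocyte markers were abundant everywhere, with a summed level of 730705 to 801788 normalised counts in young livers, 746518 to 839703 in middle-aged and 755494 to 977036 in aged ones, and 0 of 7 were called by DESeq2 or edgeR (2, 2 and 0 at an unadjusted p under 0.05). In aged against young livers 1 of 7 Kupffer cell markers rose (Marco, 14.3%) and 1 of 4 cholangiocyte markers rose (Sox9, 25%). Of 4 erythroid markers 1 fell (Alas2, 25%), and the share of all genes called was 3.58%. Sox9 also rose against middle-aged livers (25% of 4, against 1.14% of all genes). None of these markers was called by edgeR. Marco held 791, 104, 96.1 and 261 normalised counts in aged replicates 1 to 4 and 36.7 to 79.1 in young livers. Endothelial, stellate and lymphocyte markers gave no call in any comparison by DESeq2 or edgeR, with 3 endothelial calls in all at an unadjusted p under 0.05. Stellate and fibroblast markers summed to 2084 and 1724 in young replicates 1 and 2 and to 2976 and 3416 in replicates 3 and 4. The sums were 2175 and 2394 against 4236 and 3569 in middle-aged and 2404 and 1934 against 3547 and 2942 in aged livers, so the sums were higher in replicates 3 and 4 at every age. Dcn, the most abundant of these markers, and Col3a1 were higher in both of these replicates at every age, whereas Lrat, Des, Rgs5, Col1a1 and Reln were not. The part of these markers in the split of Noct was not tested. Kupffer cell markers summed to 2682 to 4570 in young livers, 2353 to 3039 in middle-aged and 2834 to 4563 in aged ones, and erythroid markers to 9810 to 36429, 5641 to 20522 and 4155 to 8885. The part of these cells in the values of Noct was not tested. Adipocyte markers summed to 218 in middle-aged replicate 3 and to at most 27.3 elsewhere. Noct was 801 in that liver, and without it the log2 fold change of middle-aged against young livers was 2.73. Young replicate 2 stood out by its mitochondrial share (19.2% of gene counts, 5.48% to 10.68% elsewhere), and young replicate 3 and middle-aged replicate 1 by 22284 and 19982 detected genes (16361 to 17563 elsewhere). Without these 3 livers the log2 fold changes of Noct were 3.00, 2.82 and 0.17 in the order given above.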

How the data were processed

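The authors deposited raw counts (whole numbers, not normalised) for every gene in the 12 livers. Per the labels, the processing notes name STAR 2.5.2b, SAMtools 1.9, featureCounts, R 3.6.3, edgeR 3.28.1 and DESeq2 1.26.0 and the build mm10. The series text speaks of fewer livers per age than the 4 that the labels list. Ages and replicate numbers were taken from the sample titles.

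The 92 spike-in rows were left out of library sizes and tests. Genes with at least 1 count (28449 of 53465) entered DESeq2 1.42.0 under R 4.3.3 (median-of-ratios size factors, age as the term, all 12 livers, Wald test, Benjamini-Hochberg adjustment, threshold 0.05). The edgeR 4.0.16 quasi-likelihood test was the alternative. Its own filter on low counts replaced the planned one after simulated data gave many false calls. Positions came from GENCODE M21 (53360 of 53465 identifiers matched), and the promoter from RefSeq on GRCm38.p6. The fits were tested on simulated data.

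Noct and all gene lists were chosen with earlier results of these data known. Named genes were Noct, the 10 genes most like and the 5 most unlike it (mean of at least 50 normalised counts, log2 with a pseudocount of 1, with and without age means removed), all paralogues and neighbours, and called list genes, up to 6 per list by fold change. Some list genes are not reported here by name. Libraries held 8124312 to 10527159 counts, and floors cover counting error only. No 2 replicates agreed within sampling noise (smallest chi-square per gene 11.2 over 18 pairs). Alternatives were TMM factors, a filter of 10 counts in 4 livers, the 2 ages alone, a replicate block, each spike-in set alone, CPM and spike-in scaling, and each liver left out. Leaving out 3 livers that stand apart was added after seeing the data.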

Additional observations from a re-analysis of the deposited data

Results flagged for a closer look

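Noct itself was noted because the difference between aged and middle-aged livers had opposite directions in the spike-in sets of libraries. Its log2 fold change was 1.02 in replicates 1 and 2, where both aged livers were above both middle-aged livers, and −1.59 in replicates 3 and 4, where both were below. This difference between sets was not tested.

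Among 228 groups of 4 livers (79 named genes), 10 single livers lay far from the other 3 of their age, with about 11.4 to be reckoned with by chance. Young replicate 2 held 4 of them. It had 805 normalised counts of Bhlhe40 (431 to 475 in the other young livers), 2641 of Alas2 (1944 to 1993), 84.1 of Fos (9.55 to 21.3) and 56.0 of Cyp4a10 (218 to 227). Middle-aged replicate 2 had 294 of Rin3, the gene most like Noct (250.2 to 257 in the others), and young replicate 1 had 329 of Aasdhppt (344 to 345). Middle-aged replicate 3 had 182 of the macrophage receptor Marco (54.1 to 71.8). Rab33b stood at 65.5 in middle-aged replicate 1 (49.4 to 52.1) and at 75.2 in aged replicate 3 (60.8 to 62.2), and Maml3 at 41.1 in middle-aged replicate 4 (30.8 to 31.4). No value of Noct lay that far out within its age.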

How the results depend on the processing

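Noct was higher in both older ages than in young livers under every alternative run. For aged against young the log2 fold change was 2.92, 1.22 in replicates 3 and 4 alone, 4.07 with spike-in scaling and 2.43 to 3.24 when 1 liver was left out. For middle-aged against young it was 2.77, 4.27 with spike-in scaling and 2.66 to 2.85 when 1 liver was left out. Spike-in scaling moved the median of all genes by 1.16 and 1.45. For aged against middle-aged it was 0.15, −1.59 in replicates 3 and 4 alone, −0.20 with spike-in scaling and −0.33 (without aged replicate 2) to 0.47 (without aged replicate 4).

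Genes called in aged against young were 484, and 172 with edgeR, 289 with the 2 ages alone, 139 in replicates 1 and 2, 93 without the 3 livers that stand apart and 237 to 1291 without 1 liver. Past 1.5 times were the fits without young replicate 2 (258), aged replicate 1 (1291), aged replicate 3 (237) and aged replicate 4 (321). In middle-aged against young they were 727, and 280 with edgeR, 1166 with the 2 ages alone, 251 in replicates 1 and 2, 306 in replicates 3 and 4, 71 without the 3 livers and 345 to 1096 without 1 liver. Past 1.5 times were the fits without young replicate 2 (364) or 3 (403), middle-aged replicate 2 (345), 3 (430) or 4 (388) and aged replicate 1 (1096). In aged against middle-aged they were 117, and 13 with edgeR, 29 in replicates 1 and 2 (of 1888 tested), 306 in replicates 3 and 4 and 40 to 198 without 1 liver. Past 1.5 times were the fits without middle-aged replicates 1 and 2 (73 each), 3 (61) and 4 (45) and aged replicates 1 (198), 3 (40) and 4 (55), each left out singly.

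Of 28 clock genes, 4 were called in aged against young, and 1 with edgeR, 2 in replicates 1 and 2, 2 without the 3 livers and 2 to 8 without 1 liver (2 without young replicate 2 or aged replicate 3, 8 without aged replicate 1). In middle-aged against young 11 were called, and 6 with edgeR, 7 in replicates 3 and 4, 3 without the 3 livers and 6 to 12 without 1 liver (7 without young replicate 4, 6 without middle-aged replicate 1 or 2). In aged against middle-aged 14 were called, and 8 with edgeR, 3 in replicates 1 and 2 and 8 to 16 without 1 liver (8 without middle-aged replicate 2, 9 without aged replicate 3). Only 9 of the 28 were tested in replicates 1 and 2 in this comparison, and 22 without middle-aged replicate 2.

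Of the list genes called by DESeq2, edgeR also called 9 of 18, 11 of 22 and 8 of 18 in the 3 comparisons, in the same direction. The fewest were 5 of 18 (replicates 1 and 2), 4 of 22 (without the 3 livers) and 3 of 18 (replicates 1 and 2, with 1888 genes tested), and 1 gene had the opposite direction in middle-aged against young livers in replicates 3 and 4. For these counts the cause was not tested, beyond the smaller number of livers in some fits. Same-numbered livers did not deviate together (mean correlation −0.03 over 12 pairs, 2 above 0.1). With a replicate block 385 genes were called in middle-aged against young and 426 in aged against middle-aged, and Noct stood at 2.68, 2.80 and −0.12. For the 15 genes listed by each measure as most like or unlike Noct, no correlation by that measure turned in sign under the other settings, and the smallest was 0.60 in size, under the replicate block. Genes listed over 12 livers could turn within ages: Timm10 went from −0.49 to 0.48 and Mup15 from −0.61 to 0.01 without aged replicates 2 and 4. Over 12 livers Angel2 (0.21 to −0.39) and Elf2 (0.12 to −0.04) turned without young replicates 1 and 3. Noct had at least 78 counts in every library, whereas Fgf21 and Cidea in young livers had too few for a fold change.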
